A study of Mus musculus with 18 samples.

Results

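Tuft cells are rare chemosensory cells of the gut epithelium. The 9 genes described here, Dclk1, Trpm5, Pou2f3, Avil, Il25, Alox5ap, Ptgs1, Gfi1b and Sh2d6, are commonly used to mark them. They were taken by symbol, from the GENCODE M21 annotation of GRCm38, out of the 47729 Ensembl genes of each count table, and all 9 were found. Epithelial cells had been sorted from the ileum of females and their RNA sequenced, with 6 libraries for each of the virgin, pregnant and pseudopregnant states. All 18 shared the sex, the tissue and the RM1 diet of the experiment, and pregnancy status was the only factor given. The sources used here give no strain, age, day of gestation, sort gate or batch. Nor is it stated whether replicates were separate animals, so every p-value measures only the spread between these libraries. Because each library pools many cells, fewer tuft cells and less RNA per tuft cell cannot be told apart.

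As background, tuft cells arise from crypt progenitors under the POU-domain transcription factor Pou2f3. They sense luminal compounds through a taste-type cascade that ends in the cation channel Trpm5. In the small intestine they are the main epithelial source of the cytokine Il25, which acts on group 2 innate lymphoid cells, and interleukin 13 from those cells in turn favours more tuft cells. They also hold enzymes that make leukotrienes, prostaglandins and acetylcholine.

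The promoters of 3 members are shown, with the octamer that POU-domain factors are known to bind. Whether such a factor has a part in how the members correlated from library to library was not tested. In all, 6 members had RefSeq promoter entries on GRCm38.p6 (all but Pou2f3, Il25 and Alox5ap), in 7 windows, since Dclk1 has 2 start sites. The 250 bases before each start were searched on both strands. The full octamer ATGCAAAT was in 0 of the 7 windows and in 1.60% of all 32851 promoters of the table. Its first 7 bases, ATGCAAA or TTTGCAT on the other strand, which every full octamer also contains, were in 1 of the 7 windows, that of Avil, against 4.12% of all promoters. Avil held 2 such matches, beginning 115 and 15 bases before the start, and they are in capitals here. The Dclk1 windows are shown beside it because Dclk1 and Avil were the closest pair of members, and that of Trpm5 as the member with the most counts. Each runs 5′ to 3′ on the strand of its gene.
Avil, chr10:127000459-127000708, plus strand: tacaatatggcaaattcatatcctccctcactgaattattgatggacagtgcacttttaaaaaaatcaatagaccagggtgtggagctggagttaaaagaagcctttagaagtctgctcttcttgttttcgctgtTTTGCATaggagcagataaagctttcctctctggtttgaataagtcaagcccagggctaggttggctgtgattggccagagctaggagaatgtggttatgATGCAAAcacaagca
Dclk1 upstream start, chr3:55242114-55242363, plus strand: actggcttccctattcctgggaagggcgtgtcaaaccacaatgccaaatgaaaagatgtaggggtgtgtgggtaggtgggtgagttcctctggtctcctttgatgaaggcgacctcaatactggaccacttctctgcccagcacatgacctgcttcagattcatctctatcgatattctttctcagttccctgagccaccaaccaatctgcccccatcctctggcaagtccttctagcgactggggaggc
Dclk1 downstream start, chr3:55461478-55461727, plus strand: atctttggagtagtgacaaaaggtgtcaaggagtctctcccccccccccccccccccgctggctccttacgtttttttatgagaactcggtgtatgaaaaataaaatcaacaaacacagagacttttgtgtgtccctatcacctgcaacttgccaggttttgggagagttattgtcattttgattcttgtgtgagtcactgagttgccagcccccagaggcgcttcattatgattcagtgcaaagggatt
Trpm5, chr7:143094643-143094892, minus strand: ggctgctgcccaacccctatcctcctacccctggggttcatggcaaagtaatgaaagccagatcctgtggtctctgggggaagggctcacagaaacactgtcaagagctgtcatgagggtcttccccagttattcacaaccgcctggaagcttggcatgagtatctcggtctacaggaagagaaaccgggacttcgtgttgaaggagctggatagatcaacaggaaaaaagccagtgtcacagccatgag
A match is a run of letters in a window and no measure of binding, and the counts do not tell which Dclk1 start was used.

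Libraries held 24946836 to 37285510 counts, so that 1 count was worth 0.0278 to 0.0459 CPM (counts divided by the library size in units of 1000000, with sizes scaled by TMM). The epithelial gene Epcam stood at 1639 to 3589 CPM and the leukocyte gene Ptprc at no more than 0.638 CPM. Some members are also known from mast cells, macrophages, platelets, stroma or neurons, so markers of these were summed. The 6 mast cell markers summed to 4.61 to 13.0 CPM in virgin, 5.67 to 14.8 CPM in pregnant and 6.57 to 17.2 CPM in pseudopregnant libraries. Of these, Cpa3, Mcpt2 and Ms4a2 were at 0 in all 18. The 6 macrophage markers lay between 5.63 and 13.3 CPM. The 7 platelet and red cell markers were at most 3.74 CPM (Ppbp at 0 in all 18), the 6 stromal markers at most 1.56 CPM, and the 6 neuron and glia markers at most 1.58 CPM (Sox10 at 0 in all 18). The 9 tuft cell genes together made up 11.8 ± 5.43 CPM in virgin, 10.6 ± 3.56 CPM in pregnant and 11.5 ± 2.57 CPM in pseudopregnant libraries (SD, n = 6 each). The lowest sum was 5.20 CPM, in pregnant replicate 3, and the highest 21.2 CPM, in virgin replicate 6. The mast cell and macrophage sums were thus of similar size, and their correlation with the tuft cell genes was not tested.

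Pou2f3, the transcription factor that tuft cells require (chromosome 9, 43123939 to 43210369, minus strand), ran from 0.243 to 1.29 CPM in virgin libraries (median 0.586). In pregnant libraries it ran from 0.214 to 0.888 CPM (median 0.564) and in pseudopregnant ones from 0.399 to 1.24 CPM (median 0.669). The groups overlapped over most of their range, and replicate 6 was the highest library of both the virgin and the pregnant group. Gfi1b, a zinc finger repressor of blood and tuft cells (chromosome 2, 28609450 to 28621982, minus strand), was barely detected, with 12, 15 and 13 counts summed over the 6 virgin, 6 pregnant and 6 pseudopregnant libraries. It had 0 counts in 3 of 18 libraries and at most 5 in any. A count of 0 allows a level of up to 3 counts, or 0.0833 to 0.138 CPM per library, which covers counting error only. Its means were 0.0633, 0.0831 and 0.0650 CPM.

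Trpm5, the cation channel at the end of the taste cascade (chromosome 7, 143069153 to 143094642, minus strand), was the member with the highest CPM. It stood at 1.50 to 5.05 CPM in virgin (median 3.16), 2.10 to 3.76 CPM in pregnant (median 3.16) and 2.32 to 3.36 CPM in pseudopregnant libraries (median 3.07). The medians were close together, and the widest spread was in the virgin group, which held both the lowest and the highest of the 18 libraries. Its coefficient of variation was 38.9% (virgin), 19.2% (pregnant) and 12.8% (pseudopregnant), where counting error alone gives 9.75%, 10.2% and 10.3%. The difference in spread was not tested.

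Dclk1, a microtubule-associated kinase (chromosome 3, 55242364 to 55539068, plus strand), ran from 0.797 to 3.65 CPM in virgin libraries (median 1.57). In pregnant libraries it ran from 0.713 to 4.02 CPM (median 1.73), and in pseudopregnant ones from 1.23 to 3.88 CPM (median 2.02). In each group 1 library stood well above the rest (virgin replicate 6, pregnant replicate 6 and pseudopregnant replicate 5), and the groups overlapped throughout. Avil, or advillin, an actin-binding protein of the villin family (chromosome 10, 127000709 to 127020994, plus strand), ran from 1.03 to 5.26 CPM in virgin libraries (median 2.12). Its range was 1.46 to 3.58 CPM in pregnant (median 2.48) and 2.25 to 5.27 CPM in pseudopregnant libraries (median 2.57). All 6 pseudopregnant libraries lay above the virgin median, while virgin replicate 6 matched the highest of them, pseudopregnant replicate 4. Avil shares 165 exon bases with Tsfm on the opposite strand, and Trpm5 shares 220 with Tssc4. Tsfm ran from 14.4 to 45.7 CPM over the 18 libraries and stood at 18.4 CPM in pseudopregnant replicate 4. The part of shared reads in the levels of Avil and Trpm5 was not tested. Sh2d6, which encodes an adaptor with an SH2 domain (chromosome 6, 72513641 to 72521707, minus strand), ran from 0.435 to 1.93 CPM in virgin libraries (median 1.26). It ran from 0.250 to 1.64 CPM in pregnant (median 0.775) and 0.508 to 1.28 CPM in pseudopregnant libraries (median 0.970). Of each of these groups 1 library of 6 was above the virgin median.

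Among the eicosanoid enzymes, Alox5ap, the membrane protein that 5-lipoxygenase needs for leukotriene synthesis (chromosome 5, 149264767 to 149288153, plus strand), ran from 0.589 to 2.92 CPM in virgin libraries (median 1.15). Its range was 0.250 to 1.65 CPM in pregnant (median 1.24) and 0.508 to 1.72 CPM in pseudopregnant libraries (median 0.768). Virgin replicate 6 was alone at the top, with the next virgin library at 1.42 CPM. Ptgs1, the cyclooxygenase that starts prostaglandin synthesis (chromosome 2, 36230426 to 36252272, plus strand), ran from 0.348 to 1.13 CPM in virgin libraries (median 0.729). It ran from 0.169 to 0.819 CPM in pregnant (median 0.418) and 0.376 to 0.908 CPM in pseudopregnant libraries (median 0.514). In each of these groups 1 of 6 libraries lay above the virgin median, and the lowest pregnant library rested on 6 counts. Il25, the cytokine (chromosome 14, 54932695 to 54935837, plus strand), had 27 counts in all: 13 in the virgin, 7 in the pregnant and 7 in the pseudopregnant group. It was at 0 in 2 libraries of each group and reached its highest value, 6 counts or 0.237 CPM, in virgin replicate 2. This cytokine transcript was therefore near the limit of detection in every group.

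**Figure D1:**
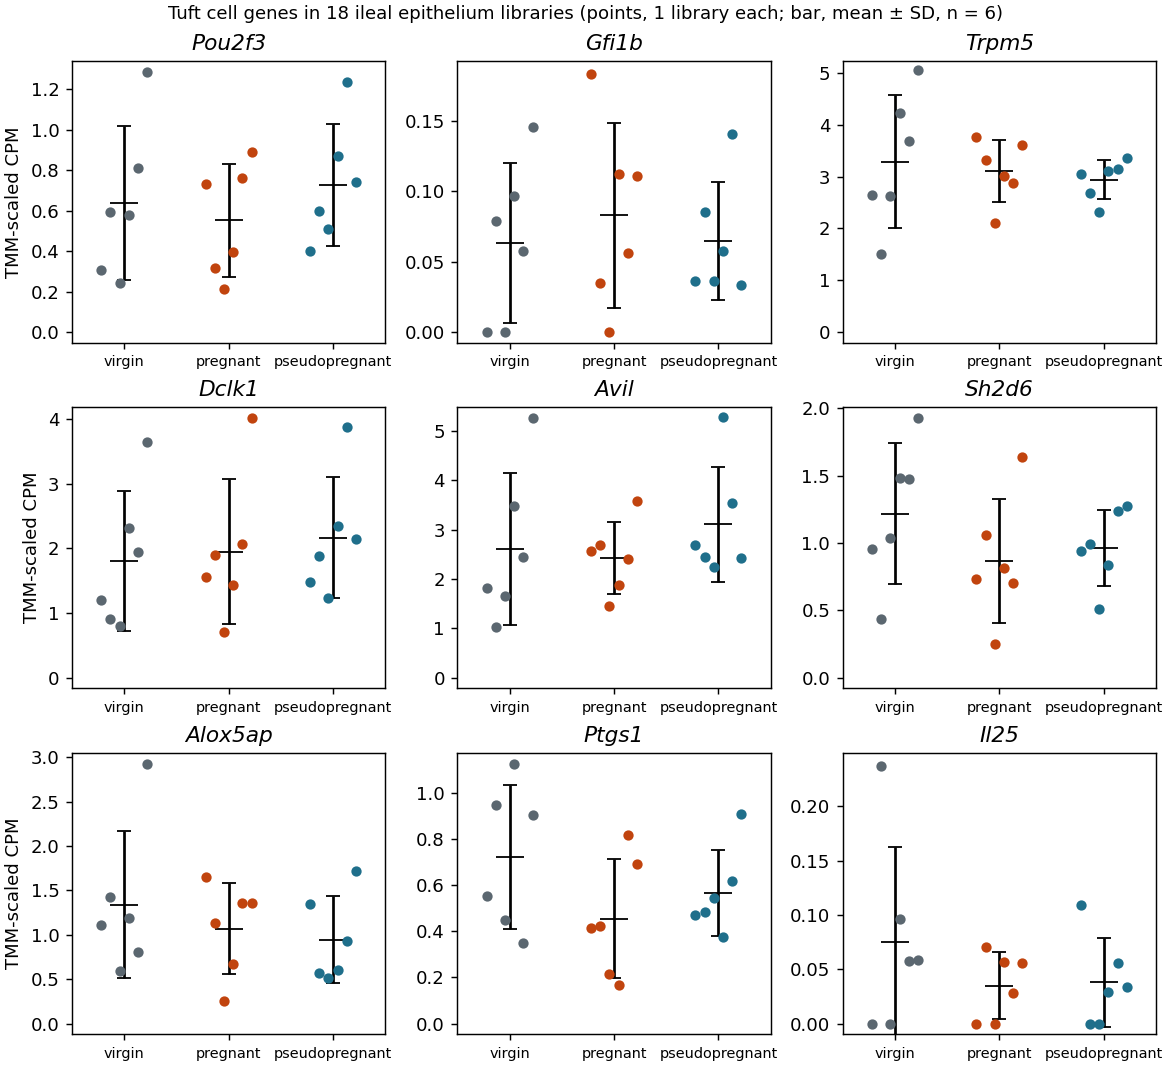
TMM-scaled CPM (vertical axes, 0 included) of the 9 tuft cell genes in each virgin, pregnant and pseudopregnant library (points), with the group mean and SD (bars, n = 6, cut off just below 0 where the SD exceeds the mean). The groups overlap for each gene, and Gfi1b and Il25 lie at or below 0.237 CPM.

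Per kilobase of annotated exon, the scale on which genes can be set against each other, the levels over all 18 libraries fell into 3 tiers. Avil (0.799 ± 0.339 CPM per kb), Alox5ap (0.788 ± 0.434), Sh2d6 (0.602 ± 0.257) and Trpm5 (0.487 ± 0.126) formed the top, where each gene differed from its neighbour by less than the larger of the pair's SDs. Pou2f3 (0.207 ± 0.101), Ptgs1 (0.150 ± 0.069) and Dclk1 (0.129 ± 0.0652) formed a middle tier with the same property. Trpm5 and Pou2f3, across that step, differed by more than either SD. Il25 (0.0464 ± 0.0547) and Gfi1b (0.0385 ± 0.0291) were at the bottom (mean ± SD of the level, n = 18). The place of Dclk1 depends on the length used, since its 15296 exon bases join all its annotated transcripts.

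Pregnant and virgin libraries were compared for the 7 members that passed the low-count filter (all but Gfi1b and Il25). None passed the threshold: 0 of 7 had an adjusted p under 0.05 with edgeR's quasi-likelihood test, where 0 of 14675 genes (0%) did, and 0 of 7 had an unadjusted p under 0.05, held by 3.68% of all genes (2.02% higher and 1.66% lower). DESeq2 and limma-voom also called 0 of 7, with 0 at an unadjusted p under 0.05. With 1 library left out, Ptgs1 reached an unadjusted p under 0.05 without virgin replicate 5 (log2 fold change -0.78) and without pregnant replicate 5 (-0.89), as did Sh2d6 without pregnant replicate 6 (-0.78). The edgeR adjusted p in these fits was 0.887, 0.786 and 0.9996, and 0 members were called. Each of these fits had 1 of 7 members under 0.05 unadjusted, beside 462 of 14804, 813 of 14805 and 450 of 14797 genes. They were picked from 12 fits of this comparison with 1 library left out, and the others had 0 members under 0.05 unadjusted. With all libraries kept, the fold changes of 6 members were negative and 1, that of Dclk1, was positive. Their median was -0.21 on the log2 scale against -0.01 over all genes. Ptgs1 had the smallest p, its mean being 0.455 ± 0.258 CPM in the pregnant and 0.722 ± 0.314 CPM in the virgin group (log2 fold change -0.63, SE 0.36, edgeR adjusted p = 0.89). Sh2d6 stood at 0.867 ± 0.460 against 1.22 ± 0.521 CPM (-0.49, SE 0.35). For Trpm5 the log2 fold change was -0.09 with a 95% interval of -0.53 to 0.35, for Avil -0.11 (-0.75 to 0.53), for Dclk1 0.11 (-0.66 to 0.89), for Pou2f3 -0.21 (-0.996 to 0.57) and for Alox5ap -0.34 (-1.14 to 0.46). Intervals this wide leave room for a change of either sign. Without virgin replicate 6 the fold changes of Trpm5 (0.08), Pou2f3 (0.12), Avil (0.21) and Alox5ap (0.06) turned positive, and without pregnant replicate 6 that of Dclk1 was -0.24. With the enterocyte minus cell cycle score of each library in the model, those of Pou2f3 (0.24), Avil (0.12) and Trpm5 (0.03) were positive.

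Pseudopregnant and virgin libraries likewise gave no call among the 7 members: edgeR had 0 at an adjusted p under 0.05 (0% of all genes) and 0 at an unadjusted p under 0.05 (9.37% of all genes, 7.36% higher and 2.01% lower), and DESeq2 and limma-voom had 0 and 0. The share over all genes varied with the fit: 1375 genes had an unadjusted p under 0.05, against 313 with the length slope of each library (defined with the ratios of members) as a covariate, 540 without pseudopregnant replicate 5 and 3390 without pseudopregnant replicate 1. Of the fold changes 3 were positive, for Dclk1 (0.26, 95% interval -0.51 to 1.02), Avil (0.24, -0.39 to 0.87) and Pou2f3 (0.19, -0.57 to 0.94). The other 4 were negative, for Alox5ap (-0.52, -1.33 to 0.29), Ptgs1 (-0.34, -1.04 to 0.35), Sh2d6 (-0.34, -1.01 to 0.33) and Trpm5 (-0.17, -0.60 to 0.27). The median was -0.17 against 0.00 over all genes. Alox5ap had the smallest p of these (means 0.945 ± 0.490 and 1.34 ± 0.828 CPM, edgeR adjusted p = 0.55). Its fold change was -0.12 without virgin replicate 6 and -0.20 with the length slope as a covariate. Both comparisons use the same virgin libraries, so their values are given side by side and their likeness is not a result.

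Pregnant set directly against pseudopregnant libraries tests whether the states differ. Again edgeR had 0 of 7 members at an adjusted p under 0.05 (0% of all genes) and 0 at an unadjusted p under 0.05 (2.35% of all genes, 0.763% higher and 1.59% lower), as had DESeq2 and limma-voom. The largest differences were those of Pou2f3 (0.552 ± 0.277 against 0.725 ± 0.301 CPM, log2 fold change -0.40, SE 0.39) and Avil (2.43 ± 0.727 against 3.10 ± 1.16 CPM, -0.36, SE 0.32), both with an edgeR adjusted p of 0.92. No member had groups without overlap in any of the 3 comparisons, a pattern seen in 0.0681%, 0.0681% and 0.0273% of all genes. For the members under the filter, exact permutation tests over the 924 splits of 6 against 6 libraries, two-sided, were run on the mean CPM, 6 tests in all. The smallest p was 0.35, for Il25 in pregnant (0.0351 CPM) against virgin libraries (0.0750 CPM), and the smallest for Gfi1b was 0.59, in the same comparison.

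**Figure D2:**
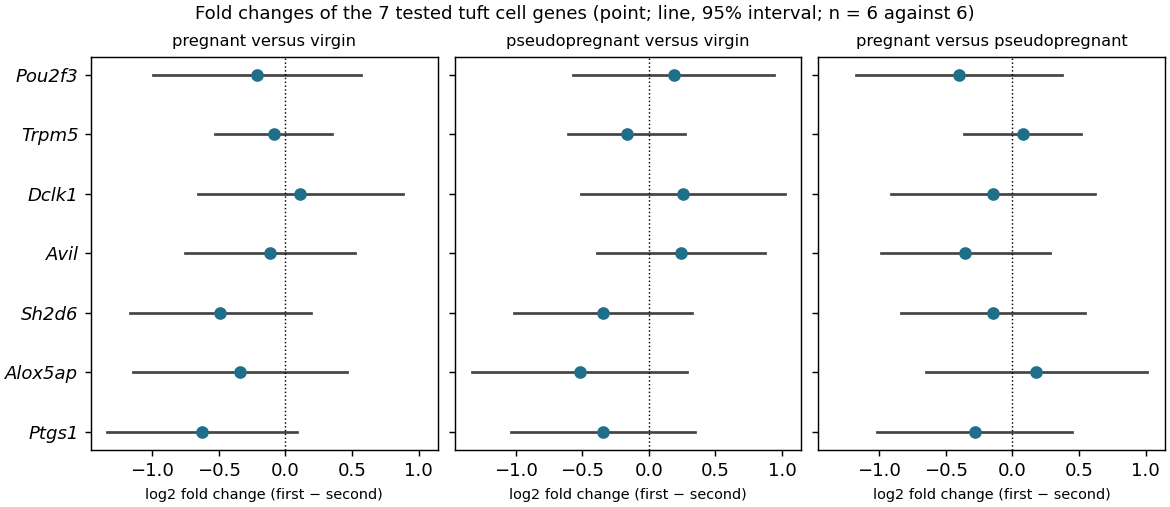
Log2 fold change (horizontal axis, first group minus second) of the 7 tested tuft cell genes in the 3 comparisons, as points with lines for the 95% intervals (n = 6 against 6). Each line crosses 0, and the estimates run from -0.63 (Ptgs1, pregnant versus virgin) to 0.26 (Dclk1, pseudopregnant versus virgin).

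The levels of the members varied together, Ptgs1 least closely. Over the 18 libraries, all 21 pairs of the 7 tested genes had a positive Pearson r of log2 CPM (median 0.54), and 14 of 21 passed an adjusted p of 0.05 in permutation tests with 100000 draws (11 of 21 by Spearman's rho). Dclk1 and Avil were the closest pair (r = 0.85, rho = 0.87, permutation p = 2.0e-05 and 1e-05, adjusted p = 0.00021 for each, the second raw p being the smallest that the draws can give). Without the 2 libraries farthest from the Dclk1 median, their r was 0.82. Dclk1 and Pou2f3 followed (r = 0.83, rho = 0.85, adjusted p = 0.00021 for each by permutation, and r = 0.72 without the 2 farthest). Trpm5 went most closely with Sh2d6 (r = 0.81, rho = 0.75, adjusted p = 0.00056 and 0.0020 by permutation, r = 0.76 without the 2 farthest). Alox5ap and Ptgs1, the eicosanoid genes, correlated with each other at r = 0.67 (rho = 0.60, adjusted p = 0.0066 and 0.023 by permutation, r = 0.53 without the 2 farthest). The weakest pairs were Ptgs1 with Trpm5 (r = 0.17, and 0.41 without the 2 farthest) and with Avil (r = 0.23, and 0.65 without the 2 farthest). With the mean of the other members, r ran from 0.47 for Ptgs1 (rho = 0.36) to 0.88 for Dclk1. The 95th percentile of tested non-members, set against the mean of all 7, was 0.59. What share of pairs of other genes would pass was not tested.

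Taken as deviations from the group means, 17 of 21 pairs passed, with a median r of 0.61. The number of pairs depended on the libraries at the ends of the range. The count fell to 9 of 21 without pregnant replicate 3, the lowest library, and to 9 without virgin replicate 6, the highest. With both left out it was 6 (median r 0.25), and with the enterocyte minus cell cycle score removed from each gene it was 8. Without virgin replicate 2 it was 21, and the lowest r of all pairs was 0.48. The members share these libraries and their depth. By mean level the libraries numbered 3 ranked 14, 17 and 18 of 18, and those numbered 6 ranked 1, 2 and 5. The labels do not say what a shared number marks, and the permutation tests treat the 18 libraries as independent.

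**Figure D3:**
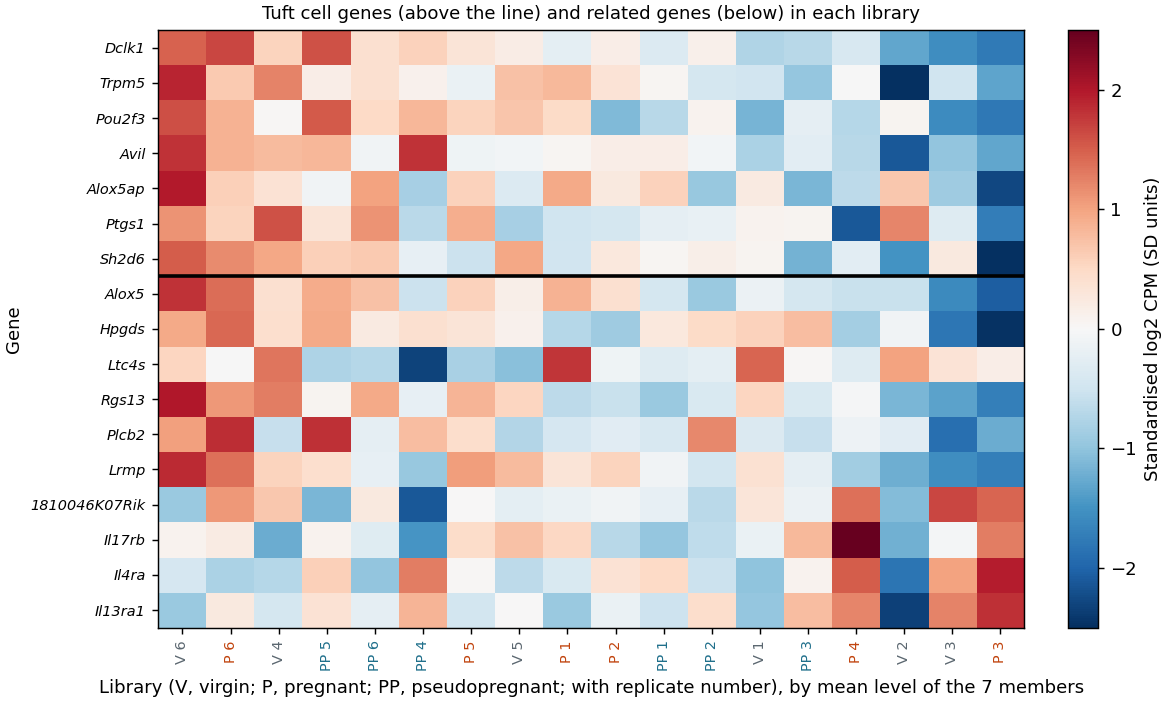
Standardised log2 CPM (colour, in SD units of each gene, with values past ± 2.5 at the end colours) of the 7 tested tuft cell genes (above the line) and 10 related genes (below), in 18 libraries ordered by the mean level of the 7. Virgin replicate 6 and pregnant replicate 6 stand at the high end and pregnant replicate 3 at the low end, with libraries of the 3 groups mixed along the order.

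Which other transcripts followed the tuft cell genes was read from the correlation of each with their mean standardised level over the 18 libraries, as a description with no test. Of the 12493 non-members with a mean of at least 1 CPM, those among the closest included Socs6, a suppressor of cytokine signalling (r = 0.84), the G-protein regulator Rgs13 (0.84), the PI3-kinase subunit Pik3r5 (0.82) and the endoplasmic reticulum protein Lrmp (0.82). Further ones were Cep57 (0.80), Ppat (0.79), Swsap1 (0.79), Kctd12 (0.79), Ppp4r4 (0.78), Prps2 (0.78) and Pus3 (0.76). Of these, Rgs13, Pik3r5, Lrmp and Kctd12 were in the lists of further tuft-related genes and the other 7 in no list. At the other end were Slc35f6 (-0.80), Tbc1d10a (-0.79), Micall2 (-0.77), the chemokine Cxcl11 (-0.76) and the MHC class I gene H2-K2 (-0.76). Over all 14668 tested non-members the median r was 0.03, with a 5th to 95th percentile range of -0.54 to 0.59.

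Of 29 further tuft cell signature genes 27 were tested, and 16 of them had an r above 0.5 (median 0.65), with Sh2d7 (0.87) and Nebl (0.85) among the highest. An r above 0.5 was not particular to tuft cell genes, since 9 of 12 cell cycle and 3 of 5 stem cell markers had one. None passed between the groups: with edgeR 0 of 27 were called in each comparison, with median fold changes of -0.14, -0.02 and -0.03 for pregnant versus virgin, pseudopregnant versus virgin and pregnant versus pseudopregnant. At an unadjusted p under 0.05 there were 0, 1 and 1 of 27, beside 3.68%, 9.37% and 2.35% of all genes, so that their number does not stand out. Those were the keratin Krt18 (227 ± 48.1 CPM in pseudopregnant against 303 ± 76.1 CPM in virgin libraries, -0.42, SE 0.19) and Gprc5c (0.410 ± 0.161 CPM in pregnant against 0.612 ± 0.119 CPM in pseudopregnant libraries, -0.55, SE 0.25). Their r with the tuft cell genes was 0.24 (Krt18) and 0.496 (Gprc5c). The level of Krt23 was 5.39 ± 1.11 CPM (pregnant) beside 7.55 ± 1.83 CPM (virgin) (-0.49, SE 0.25). Lrmp was at 1.65 ± 0.656, 1.69 ± 0.786 and 1.34 ± 0.231 CPM in pregnant, virgin and pseudopregnant libraries.

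Of the 8 genes for eicosanoid and acetylcholine synthesis 4 were tested. Alox5, the 5-lipoxygenase that works with Alox5ap, had an r of 0.90 with the tuft cell genes at a mean of 0.388 CPM. The prostaglandin D synthase Hpgds (0.73) and the phospholipase Pla2g4a (0.70) followed, while Ltc4s, the leukotriene C4 synthase, did not (-0.10). Its mean was 1.80 ± 0.432 CPM in the pseudopregnant and 2.82 ± 0.760 CPM in the virgin group (log2 fold change -0.65, SE 0.24, edgeR unadjusted p = 0.012, adjusted p = 0.52), with 0 of 6 pseudopregnant libraries above the virgin median. Hpgds was at 0.635 ± 0.0630, 0.555 ± 0.156 and 0.477 ± 0.223 CPM, and Pla2g4a at 6.47 ± 1.33, 5.90 ± 2.18 and 4.96 ± 2.16 CPM, in pseudopregnant, virgin and pregnant libraries. No gene of the 4 was called by edgeR in any comparison. At an unadjusted p under 0.05 there was only Ltc4s, lower in pseudopregnant than in virgin libraries, beside 2.01% of all genes.

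In the taste-type cascade 7 of 12 genes were tested. Rgs13 (0.84), the fatty acid receptor Ffar3 (0.63) and the phospholipase Plcb2 (0.63) went with the tuft cell genes, while the calcium release channels Itpr3 (0.18) and Itpr2 (-0.42), at means of 95.6 and 32.9 CPM, did not. Plcb2 averaged 0.361 ± 0.241 CPM (virgin), 0.524 ± 0.415 CPM (pregnant) and 0.652 ± 0.408 CPM (pseudopregnant). The G-protein subunits Gnat3 and Gng13 and the succinate receptor Sucnr1, which starts the cascade in the small intestine, were under the filter. Gnat3 averaged 0.0575, 0.114 and 0.111 CPM, Gng13 0.138, 0.139 and 0.0949 CPM, and Sucnr1 0.172, 0.0771 and 0.0964 CPM, in the virgin, pregnant and pseudopregnant groups. With edgeR 0 of 7 were called in each comparison. At an unadjusted p under 0.05, 1 was higher in pregnant than in virgin libraries (2.02% of all genes) and 4 in pseudopregnant than in virgin libraries (7.36% of all genes, a share that depends on the fit as given above). In the latter comparison 5 fold changes were positive, with Plcb2 at 0.86 and Itpr3 at 0.51. The 2 negative ones were those of Rgs13 (-0.45) and Ffar3 (-0.29). The part of the length slope in the number of 4 was not tested. The smallest p in the list was that of Itpr2 (37.5 ± 9.44 CPM when pregnant, 25.8 ± 8.63 CPM when virgin, 0.54, SE 0.21), followed by Plcg2 (22.6 ± 4.25 CPM in pseudopregnant and 17.2 ± 4.23 CPM in virgin libraries, 0.40, SE 0.17) and the taste receptor Tas1r3 (0.719 ± 0.322 and 0.434 ± 0.178 CPM in the same groups, 0.74, SE 0.32). The r of Plcg2 with the tuft cell genes was -0.04 and that of Tas1r3 0.21.

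Of the type 2 cytokine circuit that tuft cells feed, the cytokines Il4, Il5 and Il13 had 0 counts in all 18 libraries. The receptors Il13ra1 (101.7 ± 26.6 CPM for virgin, 121.8 ± 28.6 CPM for pregnant and 119.6 ± 13.9 CPM for pseudopregnant mice) and Il4ra (64.0 ± 13.9, 81.1 ± 19.9 and 75.1 ± 13.3 CPM) were far above the tuft cell genes in CPM. Their r with the tuft cell genes was -0.37 and -0.41, inside the range of most tested genes. The Il25 receptor chain Il17rb stood at 1.36 ± 0.224, 1.71 ± 0.429 and 1.33 ± 0.235 CPM (r = -0.31). The alarmin Il33 had the smallest p of the list, with 16.2 ± 6.59 CPM for pregnant and 10.1 ± 3.31 CPM for virgin mice (log2 fold change 0.67, SE 0.29, edgeR adjusted p = 0.89). With edgeR 0 of the 5 tested genes were called in any comparison.

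Among regulators of secretory fate, the r with the tuft cell genes was 0.59 for Sox4, 0.53 for Atoh1, 0.52 for Sox9, 0.45 for Gfi1 and 0.06 for Spib. That of 1810046K07Rik, also listed with the regulators, was -0.38. By rank the order differed, with a rho of 0.57 for Atoh1, 0.56 for Gfi1, 0.46 for Sox4 and 0.45 for Sox9, and no difference between them was tested. With edgeR 0 of 6 tested regulators were called in any comparison. At an unadjusted p under 0.05 there was only 1810046K07Rik, higher in pregnant than in pseudopregnant libraries, beside 0.763% of all genes. Atoh1, the switch to secretory fates, averaged 13.3 ± 3.36 CPM (pregnant) and 16.6 ± 5.87 CPM (virgin) (-0.32, SE 0.22), and Gfi1 at 2.18 ± 0.640 CPM in pregnant and 2.88 ± 0.733 CPM in pseudopregnant libraries (-0.39, SE 0.27).

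**Figure D4:**
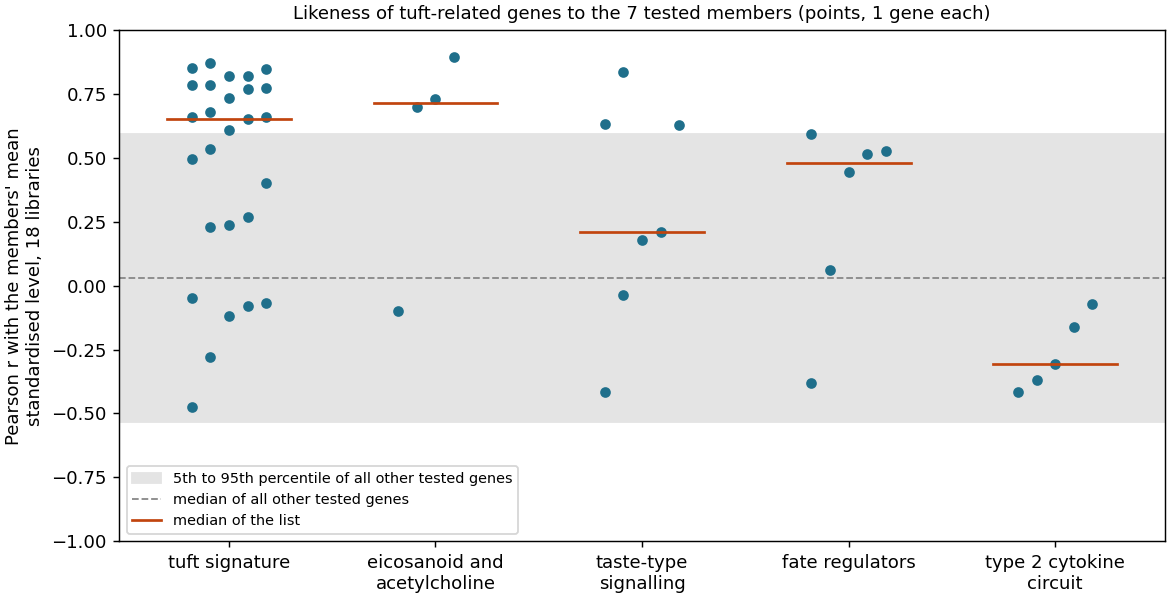
Pearson r over 18 libraries (vertical axis) of each tested gene of 5 tuft-related lists (points) with the mean standardised level of the 7 tested tuft cell genes, the list medians (solid lines), and the median and the 5th to 95th percentile of all other tested genes (dashed line and band). Signature genes have a median of 0.65, above the band, whereas the type 2 circuit has a median of -0.31.

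Markers of the other cell types of the epithelium were set beside the tuft cell genes in the same way. Of 8 goblet markers none had an r above 0.5 with their mean level (median 0.13), nor had any of 8 enteroendocrine markers (median 0.00), and 1 of 8 Paneth markers had (median 0.36). The cell cycle markers had a median of 0.57 (9 of 12 above 0.5), the stem cell markers 0.56 (3 of 5) and the absorptive enterocyte markers -0.45 (0 of 14). Between pregnant and virgin libraries the medians of the fold changes were -0.34 for goblet, -0.40 for enteroendocrine and -0.14 for Paneth markers, beside -0.21 for the tuft cell genes. These differences between lists were not tested. Gene by gene, 35 relations of the 7 members with 5 library scores were tested by permutation. Pou2f3 was lower in libraries with a high enterocyte minus cell cycle score (r = -0.72, rho = -0.72, adjusted p = 0.034 and 0.026 by permutation, r = -0.53 without the 2 farthest libraries and -0.73 within groups). For the other 6 the r with that score ran from -0.61 (Dclk1, permutation adjusted p = 0.086) to -0.34 (Trpm5). The score was highest in pregnant replicate 3 (1.44), virgin replicate 3 (1.25) and pseudopregnant replicate 3 (1.01). Its part in the low tuft cell levels of pregnant replicate 3 was not tested. Alox5ap correlated with the Paneth score by rank (rho = 0.71, adjusted p = 0.026) but not by r (0.64, adjusted p = 0.083, permutation in both cases, and r = 0.72 without the 2 farthest libraries). The relation of Alox5ap with the length slope, which also passed by rank, is given with the ratios of members.

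The ratio of Dclk1 to Alox5ap, alone among the 6 ratios examined, followed the length slope of the library by both r and rho. The length slope of a library says how far its long genes lie above its short ones, relative to the 18-library mean, over 6349 genes of at least 20 CPM. The virgin median of the slope was -0.06, the pregnant one 0.02 and the pseudopregnant one 0.10, with ranges of -0.25 to 0.08, -0.24 to 0.16 and -0.17 to 0.26. Dclk1, with the most exon bases of the members (15296), was set against each of the other 6, a choice made after the values were seen. The p-values of these ratios do not allow for that choice. The log2 CPM of Dclk1 minus that of Alox5ap (1420 exon bases) ran from -0.61 in virgin replicate 2 to 1.99 in pseudopregnant replicate 5. This difference had a median of 0.36 in the virgin, 0.87 in the pregnant and 1.40 in the pseudopregnant group. Over the 18 libraries it rose with the length slope (r = 0.93, rho = 0.92, adjusted p = 6.0e-05 for each, the smallest that the permutations can give over 6 relations). The r was 0.89 without the 2 libraries farthest on the slope and 0.91 within groups. Against Ptgs1 the r was 0.57 (permutation adjusted p = 0.038, rho = 0.52, adjusted p = 0.087). That r was 0.35 without the 2 farthest, a drop that was not tested, and 0.53 within groups. The r was 0.46 against Trpm5, 0.33 against Pou2f3, 0.33 against Sh2d6 (1690 exon bases) and 0.11 against Avil, none of which passed. Taken singly among the 35 relations, Alox5ap fell with the slope by rank (rho = -0.66, permutation adjusted p = 0.046). By r it did not pass (-0.53, permutation adjusted p = 0.13, and -0.57 without the 2 farthest). Dclk1 taken singly had an r of 0.37 and a rho of 0.27 (permutation adjusted p = 0.36 and 0.54). With the slope as a covariate, the pseudopregnant versus virgin fold change of Dclk1 was -0.12 and that of Pou2f3 -0.04, in place of 0.26 and 0.19. That of Alox5ap was -0.20 in place of -0.52. No member was called with it.

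**Figure D5:**
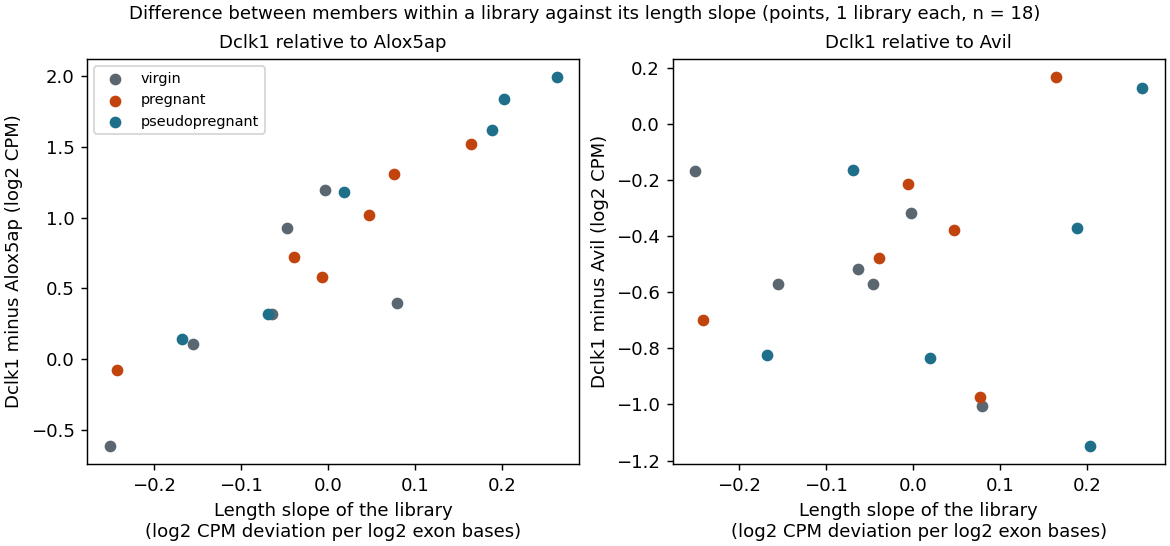
Log2 CPM of Dclk1 minus that of Alox5ap (left) and of Avil (right) against the length slope of the library (horizontal axis, log2 CPM deviation per log2 exon bases), with 1 point per library coloured by group (n = 18). The left difference rises along the slope from -0.61 to 1.99 in libraries of all 3 groups, and the right one has an r of 0.11.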

How the data were processed

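The values deposited by the authors are raw read counts per Ensembl gene, 1 table for each of 18 poly(A) RNA libraries of sorted ileal epithelium. The submitters' processing notes name HISAT2 2.0.4, featureCounts, Subread 2.0.0 and GRCm38. No source used here states the annotation release or strand setting of the counting, so genes that overlap on opposite strands may share reads. Per the labels' protocols the library kit was directional. GENCODE M21 gave symbols for 47310 of 47729 genes, and the 419 others held at most 0.029% of counts. No 2 replicates of a group were near-duplicates, since chi-square divided by its degrees of freedom was 35.5 to 455.8.

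Sample titles gave the groups and replicate numbers. Genes were filtered with filterByExpr (14675 left), scaled by TMM and fitted in edgeR 4.0.16 (R 4.3.3) by quasi-likelihood with 1 mean per group over all 18 libraries (legacy = FALSE). Contrasts were two-sided, with Benjamini-Hochberg adjustment over all genes and a threshold of 0.05. The SE is the fold change divided by the root of F, and 95% intervals are 1.96 SE either side. Correlations used log2 CPM with a prior count of 2, SciPy 1.17.1 and 100000 permutations, adjusted over the 21 pairs, 35 scores or 6 ratios. A score is the mean deviation of a list's tested genes from their 18-library means. Exon bases are the union of annotated exons.

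The members, lists, rule for named genes and alternatives were chosen with earlier results of these data known. Named were the 9 members, the 3 genes of smallest p of each tuft-related list with a fixed set of further genes, and the 12 most and 5 least like genes, of which 1 is not reported here. Alternatives were scaling by DESeq2 size factors or upper quartile, 2 other filters, DESeq2 1.42.0, limma-voom (limma 3.58.1), a robust fit, only the 12 libraries compared, a threshold of 0.01, a replicate block, the enterocyte minus cell cycle score as a covariate, mitochondrial genes left out and each library left out. The length slope, group-centred correlations and the joint omission of 2 libraries were added after the data were seen. The fits were tested on simulated counts.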

Additional observations from a re-analysis of the deposited data

Results flagged for a closer look

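Alox5ap in virgin replicate 6, at 2.92 CPM, stood apart from the other 5 virgin libraries, the nearest of which was at 1.42 CPM. The gap was 0.643 of the group's range, above Dixon's 95% critical value for 6 samples. It was the only one of 27 gene and group combinations to do so, and chance marks about 5% of groups. The same library was the highest of its group for Dclk1, Trpm5, Pou2f3, Avil and Sh2d6.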

How the results depend on the processing

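No member was called in any comparison under any alternative run, the sets with 1 library left out included. Over all genes, DESeq2 called 5 and the fit with the replicate block 1 in pregnant versus virgin libraries, where edgeR without the block called 0. Same-numbered libraries of different groups correlated at -0.48 to 0.66 (median 0.13, against -0.04 for differently numbered ones). Of these pairs 10 of 18 were over 0.1, and 5 of 18 libraries correlated best with their own number. The numbers were not taken to pair samples, although a shared source was not excluded. Libraries numbered 3 were all low and those numbered 6 all high in the mean level of the members. With the block 0 members were called. Genes at an edgeR unadjusted p under 0.05 went from 540 to 979 (pregnant versus virgin), 1375 to 1988 (pseudopregnant versus virgin) and 345 to 618 (pregnant versus pseudopregnant). The sign of a member's fold change turned in 22 cases. For pregnant versus virgin libraries, Avil was 0.016 with limma-voom and, with the enterocyte minus cell cycle score, 0.12, Trpm5 0.031 and Pou2f3 0.24, while Dclk1 was -0.089 with the length slope. For pseudopregnant versus virgin libraries the length slope gave -0.12 for Dclk1 and -0.039 for Pou2f3. For pregnant versus pseudopregnant libraries Dclk1 was 0.19 and Sh2d6 0.026 with the score, and Dclk1 0.031 with the slope. With 1 library left out, pregnant versus virgin values ran from -0.24 to 0.45 for Dclk1, -0.23 to 0.076 for Trpm5, -0.42 to 0.12 for Pou2f3, -0.27 to 0.21 for Avil and -0.49 to 0.061 for Alox5ap. Pseudopregnant versus virgin values ran from -0.037 to 0.52 for Pou2f3, and pregnant versus pseudopregnant values from -0.50 to 0.11 for Dclk1 and -0.44 to 0.042 for Sh2d6. The cause was not tested. Pairs of members that passed numbered 8 of 21 with the score removed, 6 without virgin replicate 6 and pregnant replicate 3 (median r 0.25), and 9 to 21 with 1 library left out. The filter of at least 1 CPM in 6 libraries removed Pou2f3 and Ptgs1. Depth limits Gfi1b and Il25, with at most 5 and 6 counts in a library.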

Other observations

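Several genes of the tuft-related lists had an r at or below 0 with the mean level of the tested tuft cell genes over the 18 libraries, given as a description. The gene 1810046K07Rik, listed here among the regulators, stood at a mean of 4.47 CPM, against 0.638 CPM for Pou2f3, and its r was -0.38. Its levels were 4.59 ± 2.18 CPM in virgin, 5.59 ± 1.82 CPM in pregnant and 3.23 ± 1.06 CPM in pseudopregnant libraries. The difference between pregnant and pseudopregnant libraries had an edgeR unadjusted p of 0.014 (adjusted p = 0.92, log2 fold change 0.80, SE 0.30), with all 6 pregnant libraries above the pseudopregnant median. Ptpn6 (r = -0.47, 17.4 CPM), Inpp5j (-0.28, 36.0 CPM), Skap2 (-0.12, 20.8 CPM), Krt23 (-0.08, 6.10 CPM) and Tuba1a (-0.07, 109.7 CPM) were signature genes with such an r, as was Rac2 (-0.05, 0.923 CPM).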
